A study of Homo sapiens with 27 samples.

Results

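Tail-to-tail ends are pairs of transcript 3' ends that face each other from opposite strands. They were taken here from peak lists of 3'-seq, a sequencing assay that reads the poly(A) ends of messenger RNA. Peaks of all 27 libraries that overlapped on a strand were merged into 233020 ends, of which 9910 on the autosomes were listed in every library and are called core ends. A pair joined a plus-strand and a minus-strand core end whose 3' edges (the right edge on the plus strand, the left edge on the minus strand) lay within 2000 bases of each other. The rule gave 450 pairs from 803 distinct ends, out of 11320 core pairs of any orientation within 50000 bases. The members were chosen by their listing in all 27 libraries (at least 5 counts in each) and by their positions. Ends that drop out of a list in any group are therefore not among the members.

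The libraries came from 3 lines of non-small cell lung cancer and 9 groups of 3. H358 cells were extracted whole after vehicle (DMSO), cisplatin or oxaliplatin. For A549, cytosol and heavy polysomes were extracted after DMSO or cisplatin, and for A549R, cytosol was extracted after DMSO or cisplatin. Cisplatin and oxaliplatin, platinum compounds that form adducts on DNA, were given at 100 µM, and no time is stated in the labels. What distinguishes A549R from A549, and whether replicates are separate cultures, is likewise not given, so p-values measure the spread between these samples. The files hold positions and strands but no gene names, and ends are named by position on coordinates that fit the human build hg19.

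In mammalian genomes, neighbouring genes often point towards each other and end close together. RNA polymerase II transcribes past the poly(A) site of a gene before it is released, so the transcription of one convergent gene can run into the other. A gene can also use several poly(A) sites, and each end is counted here on its own. The 3'-seq count of an end is a level of RNA that ends there, and in these bulk samples fewer cells that use an end and less RNA per cell cannot be told apart.

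Most pairs left a gap between their edges. In 286 pairs the minus-strand edge lay to the right of the plus-strand edge, with a median gap of 750.5 bases. In the other 164 pairs the edges had crossed, by a median of 196 bases. The peaks themselves overlapped in 139 of these pairs, of which 25 shared at least 50% of the wider peak, and in the other 25 crossed pairs they did not overlap. The closest edges were those of chr17:7128273-7128595 (plus) and chr17:7128592-7128992 (minus), which crossed by 3 bases. Next came chr11:63765388-63766016 (plus) and chr11:63766020-63766168 (minus), 4 bases apart. Just inside the limit stood chr5:99388998-99389382 (plus) with chr5:99387388-99387914 (minus), crossed by 1994 bases, and just outside it chr6:88221667-88222058 (plus) with chr6:88224060-88224224 (minus), 2002 bases apart. Some ends served in several pairs: 713 ends were in 1 pair, 85 in 2 and 5 in 3 or more, and 280 pairs shared no end with another. Pairs that share an end are not independent. Chromosome 17 held the most pairs, 65, and chromosome 1 held 47.

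**Figure D1:**
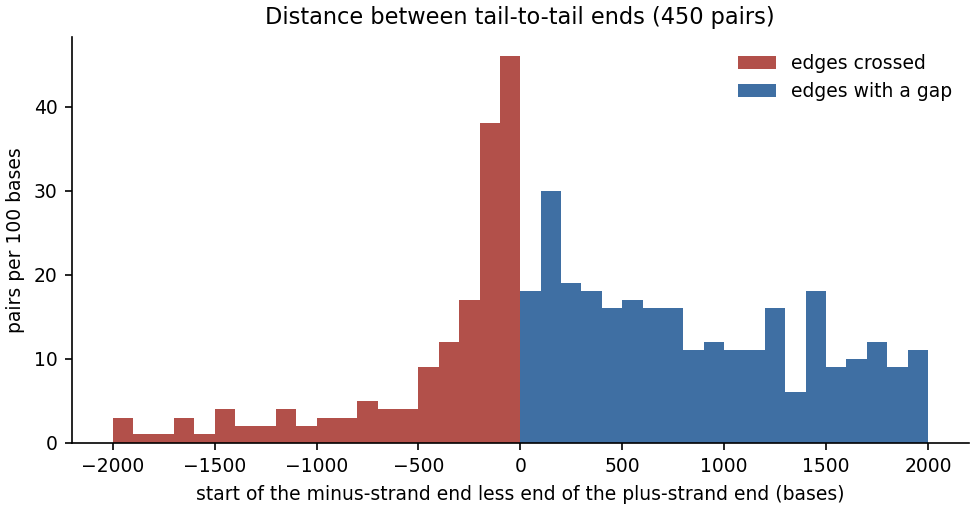
Distance from the plus-strand 3' edge to the minus-strand 3' edge in bases (x axis) against the number of pairs in each bin of 100 bases (y axis). Of the 450 pairs, 164 have crossed edges (below 0) and 286 have a gap, and the pairs are densest near 0.

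The 2 ends of a pair were seldom equal. Summed over all libraries, the stronger end held a median of 3.09 times the counts of the weaker (quartiles 1.76 and 6.00, highest 329.2), and it was the plus-strand end in 216 pairs and the minus-strand end in 234. In 139 pairs the ends were within 2-fold of each other, and in 68 they differed by more than 10-fold. The plus-strand end led in all 27 libraries in 108 pairs, the minus-strand end did so in 115, and in 227 pairs the leading end was not the same in every library. Across the means of the 9 groups, the plus-strand share of a pair's counts ranged over a median of 26.8 percentage points and at most 87.5. Member ends had a median of 49.9 CPM (counts per 1e6 core counts, after scaling), against 31.7 for all core ends. The pair with the most counts was chr19:49469528-49470268 (plus) with chr19:49471366-49472038 (minus), where 1153658 counts fell on the plus strand and 9344 on the minus strand.

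Library totals ran from 3024814 to 11997535 counts, of which core ends held 39.4% to 77.2% and member ends 9.85% to 13.4% of the core. The libraries fall into 2 kinds by how many of their numbered peaks are listed: 16 list 73.1% to 79.4% of their peak numbers, and 11 list 30.6% to 42.3%. The shorter lists are those of H358 oxaliplatin, A549 cytosol and replicate 3 of both polysome groups. Kind of list and group therefore cannot be told apart in 3 comparisons: H358 oxaliplatin against DMSO, H358 cisplatin against oxaliplatin, and A549R against A549. For polysomes against cytosol the kind differs in replicates 1 and 2 but not 3. Core ends held 66.2% to 77.2% of the total in short lists and 39.4% to 56.8% in long lists. Results scaled to deposited totals therefore carry the kind of list wherever it differs between groups. Among the 803 member ends, 2 had a 3' edge that lay further downstream in every long list than in every short list. These are the plus-strand ends of the pair described below as pair A, by at least 345 bases, and of chr17:15878408 (plus) with chr17:15881037 (minus), by at least 91 bases.

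Each of 8 comparisons was asked 2 questions. The first was whether both ends of a pair changed in the same direction, each tested in a fit over all 9910 core ends. The second was whether the balance of a pair, the log2 of plus-strand over minus-strand counts within a library, changed between groups. That test was adjusted over all 11320 pairs and does not depend on how libraries are scaled to each other. A call is an adjusted p below 0.05, and errors of fold changes are standard errors (SE). Fits held no term for replicate number unless a replicate block, which adds that term, is named. Counts with the block, with DESeq2, with deposited library totals or at an unadjusted p are of members only.

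With cisplatin in H358, the balance of plus-strand over minus-strand end changed in 155 of 450 pairs (34.4%; 21.1% over all core pairs), 78 towards the plus-strand end and 77 towards the minus-strand end. Both ends were called in the same direction in 24 pairs, 17 higher and 7 lower (5.33%; 4.53% over all opposite-strand pairs within 50000 bases). They were called in opposite directions in 15 pairs (3.33% against 2.7%), and in 166 pairs a single end was called. Taken singly, 222 of 803 ends changed, 119 higher and 103 lower (27.65% against 26% of all core ends; 14.8% against 12.5% for higher and 12.8% against 13.5% for lower). With libraries scaled to their deposited totals in place of the core, 35 ends were higher and 320 lower, and 2 pairs were higher and 74 lower at both ends, so the direction of single ends and of pairs that moved together holds only relative to the core. The median member end shifted by -0.57 on the log2 scale under totals.

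The widest shift towards the plus strand with cisplatin in H358 was at chr17:19504818-19505200 (plus) and chr17:19506542-19506736 (minus), whose edges lie 1342 bases apart. The plus-strand end stood at 19.4, 23.3 and 16.7 CPM in DMSO and at 165, 340.2 and 175 CPM in cisplatin, while the minus-strand end stood at 25.6, 21.9 and 15.2 CPM and then 23.5, 36.5 and 6.64 CPM. All cisplatin libraries were above all DMSO libraries at the plus-strand end, and the groups overlapped at the minus-strand end. The log2 change was 3.50 ± 0.32 (adjusted p = 3.15e-07) against 0.07 ± 0.39 (adjusted p = 0.919), and the plus-strand share went from 49.0% ± 5.11 to 91.4% ± 4.5 (SD, n = 3).

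A shift of like size came at chr17:74383547-74383946 (plus) and chr17:74385530-74386253 (minus). There the plus-strand share was 13.0%, 14.0% and 17.8% in DMSO and 57.7%, 69.8% and 64.1% in cisplatin. The shares did not overlap, and the balance changed by 3.34 ± 0.32 on the log2 scale (adjusted p = 1.52e-05).

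In the other direction, chr19:45574014-45574220 (plus) kept 38.5, 20.5 and 30.0 CPM in DMSO and 25, 26.6 and 19.9 CPM in cisplatin. Its partner chr19:45574752, 532 bases away on the minus strand, went from 4.14, 2.41 and 11.5 CPM to 41.7, 40.7 and 56.0 CPM. Every cisplatin library was above every DMSO library at that minus-strand end (log2 change 3.04 ± 0.42, adjusted p = 3.46e-05). At chr6:3152716-3153543 (plus) and chr6:3153865 (minus) both ends were called: the plus-strand end fell by 1.00 ± 0.29 and the minus-strand end rose by 1.90 ± 0.24 on the log2 scale. The plus-strand share there was 48.8%, 54.9% and 46.2% in DMSO and 14.1%, 13.0% and 8.04% in cisplatin.

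Ends that rose together were led by chr14:32953342-32954332 (plus) and chr14:32953301-32954336 (minus), whose peaks cover nearly the same bases on both strands (pair F in the plots). The plus-strand end had 347, 328 and 287 CPM in DMSO and 2303, 2013 and 1103 CPM in cisplatin, and the minus-strand end had 347, 314 and 325 CPM and then 1365, 2329 and 1454 CPM. Both ends were higher in every cisplatin library, by 2.49 ± 0.29 (adjusted p = 3.89e-06) and 2.38 ± 0.25 (adjusted p = 1.12e-06) on the log2 scale. The balance of this pair did not pass the test (log2 change 0.09 ± 0.31, adjusted p = 0.897). A second pair without overlap, chr1:6648975-6649348 (plus) and chr1:6650775 (minus), rose by 1.58 ± 0.32 and 1.56 ± 0.30 across a gap of 1427 bases. Of pairs that fell together, chr9:130265438 (plus) and chr9:130267613 (minus) had log2 changes of -1.10 ± 0.40 (adjusted p = 0.0471) and -1.08 ± 0.25 (adjusted p = 0.00383). Its plus-strand call was lost in 6 of the 9 fits that leave out 1 library (-1.4 to -0.78): those without DMSO replicate 1 or 3, without any 1 cisplatin replicate, or without oxaliplatin replicate 3.

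The clearest pair with ends called in opposite directions was chr16:3022590-3023496 (plus) and chr16:3022785-3023114 (minus), pair C in the plots. The minus-strand peak lies wholly inside the plus-strand peak. With cisplatin in H358 the plus-strand end went from 80.0, 60.6 and 81.1 CPM to 25.7, 26.6 and 25.8 CPM, and the minus-strand end from 84.0, 53.9 and 110 CPM to 149, 168 and 238 CPM. Neither end's groups overlapped. The plus-strand end fell by 1.50 ± 0.25 (adjusted p = 0.00022) and the minus-strand end rose by 1.17 ± 0.27 (adjusted p = 0.00362). Pairs at chr7:102952494 (plus) with chr7:102952627 (minus), and chr16:67262868 (plus) with chr16:67263282 (minus), also had opposite calls, with balance changes of -2.43 ± 0.31 and 2.33 ± 0.31. The minus-strand call of the chr7 pair (log2 change 0.82 to 1.38 over 9 such fits) was lost without DMSO replicate 1 or 3 or cisplatin replicate 2 or 3.

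The count of 24 pairs that moved together rested on single libraries. It was 12 without DMSO replicate 1 and 9 without cisplatin replicate 2, all higher in both cases, and 14 (5 higher, 9 lower) without DMSO replicate 2, 15 without cisplatin replicate 1 and 16 without cisplatin replicate 3. The balance was called in 25.3% to 35.1% of pairs when each of the 9 H358 libraries was left out in turn.

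**Figure D2:**
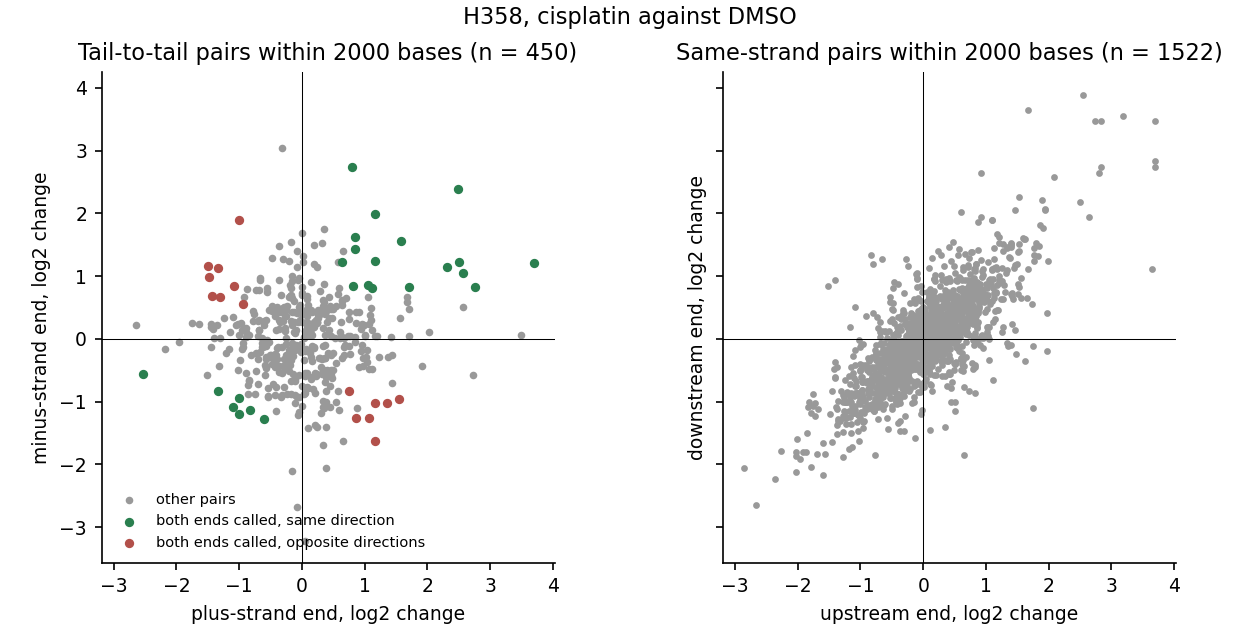
Log2 change with cisplatin in H358 at the plus-strand end (x axis) and the minus-strand end (y axis) of 450 tail-to-tail pairs on the left, and at the upstream and downstream end of 1522 same-strand pairs within 2000 bases on the right, 1 point per pair. Pearson's r across pairs is 0.09 on the left, where 24 pairs are called together (green) and 15 in opposite directions (red), and 0.77 on the right.

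How alike the facing ends changed was set beside pairs at other distances and strands. Across the 450 pairs, the log2 changes of both ends with cisplatin in H358 had a Pearson's r of 0.09 (Spearman's rho 0.05), and 52.0% had the same sign. The r was 0.15 over 702 opposite-strand pairs over 2 and up to 10 kb apart and 0.09 over 2775 pairs over 10 and up to 50 kb apart. By contrast it was 0.77 over 1522 same-strand pairs within 2000 bases, of which many can be ends of 1 gene. Over the 6 comparisons of platinum treatments, r lay between 0.00 and 0.19 for tail-to-tail pairs and between 0.58 and 0.77 for close same-strand pairs. All ends of a comparison share the same libraries, pairs can share an end, and genes are not replicates, so these are descriptions.

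The same classes were compared for the balance. With cisplatin in H358 it changed in 34.4% of tail-to-tail pairs, in 30.9% of opposite-strand pairs over 2 and up to 10 kb apart and in 28.7% over 10 and up to 50 kb apart. For same-strand pairs within 2000 bases the share was 5.26%. In each of the 8 comparisons the tail-to-tail share was above that of opposite-strand pairs over 2 and up to 10 kb apart. The share over 10 and up to 50 kb apart exceeded it for polysomes against cytosol alone. These differences were not tested. Over the 9 groups as a whole, the balance of 417 of 450 tail-to-tail pairs differed (92.7%; 81.7% over all core pairs), and at both larger distances of opposite-strand pairs it was 92.2% and 92.5%. Library by library, with each experiment centred on its mean, the median r of both ends over 27 libraries was 0.14 in tail-to-tail pairs and 0.54 in close same-strand pairs. An r above 0.5 was found in 61 of the 450 pairs (13.6%) and one below -0.5 in 17 (3.78%). The shares were 18.7% and 3.56% in opposite-strand pairs over 2 and up to 10 kb apart and 13.3% and 2.77% over 10 and up to 50 kb apart, so the tail-to-tail pairs lay near these other pairs. A median over pairs of the weaker over the stronger end, taken in each library, differed by at most 0.12 on the log2 scale in any comparison (exact two-sided permutation tests, 3 against 3 libraries, adjusted p from 0.4 to 0.9 over 8 comparisons; the smallest p possible is 0.1). With other choices of pairs it was wider: -0.19 for cisplatin in H358 over the 314 pairs within 1000 bases, and 0.17 for polysomes against cytosol over the 176 pairs with at least 20 counts in every library (0.03 over all pairs; exact permutation p = 0.1 in both cases, before adjustment).

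**Figure D3:**
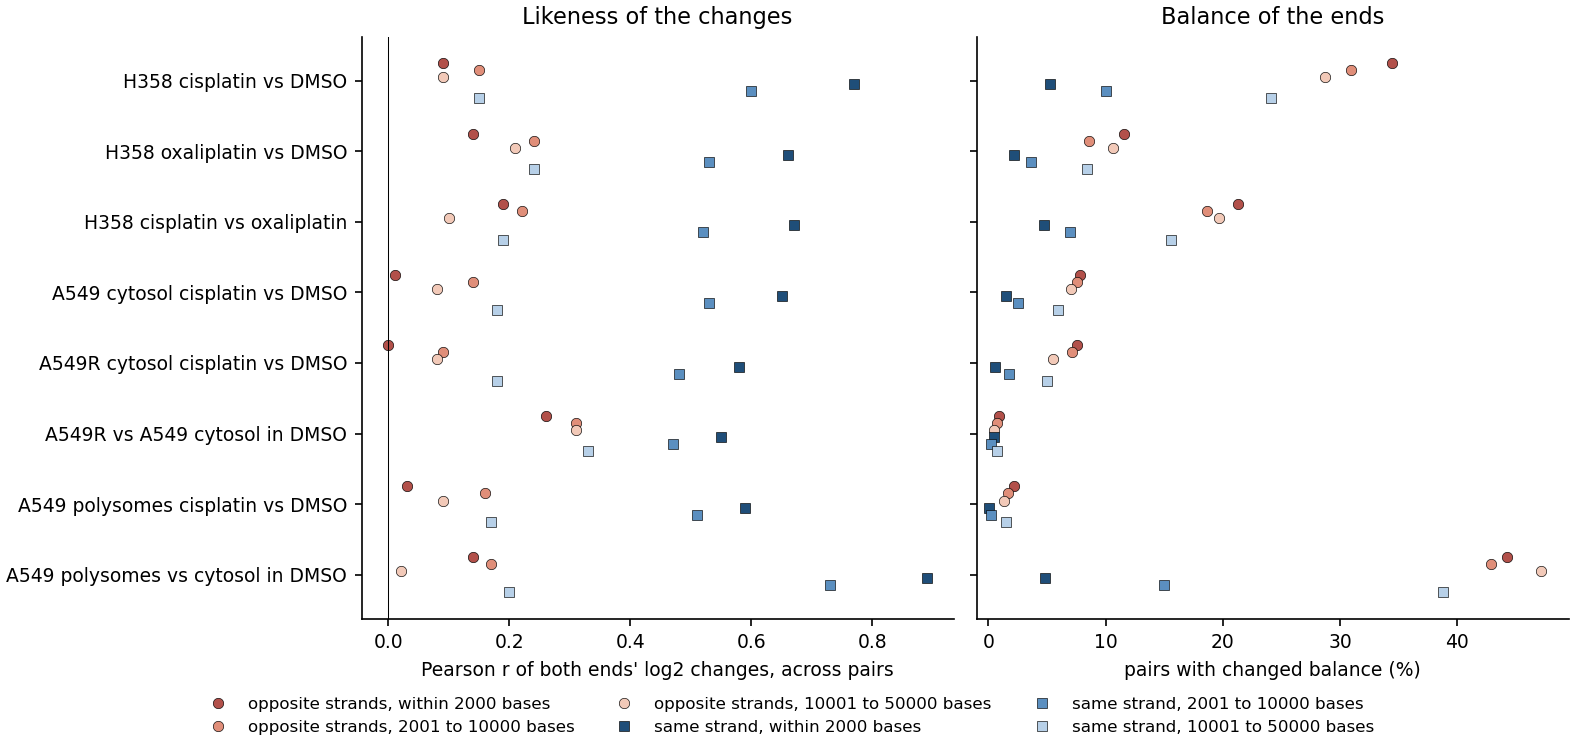
Left, Pearson's r across pairs of the log2 changes of both ends (x axis), and right, the percent of pairs with changed balance (x axis), for the 8 comparisons (y axis) and 6 classes of core pairs by strand and distance. Tail-to-tail pairs (dark red) lie with the other opposite-strand classes at an r of 0.00 to 0.26, whereas same-strand pairs within 2000 bases (dark blue squares) lie at 0.55 to 0.89.

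The pairs were also split by how their peaks lie. With cisplatin in H358 the r was 0.17 in the 164 crossed pairs, 0.05 in 101 pairs with a gap up to 500 bases and 0.00 in 185 pairs with a wider gap. The 25 pairs whose peaks share at least 50% of the wider peak stood higher, at 0.44 (0.33 without the chr14 pair), with 6 called together and 2 in opposite directions. For cisplatin against oxaliplatin those 25 pairs had an r of 0.72, or 0.65 without chr12:20704320 (plus) and chr12:20704374 (minus). The same 25 pairs had an r of 0.06 for oxaliplatin against DMSO and 0.06 for cisplatin in A549 cytosol.

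With oxaliplatin in H358 the balance was called in 52 pairs (11.6%; 7.43% over all core pairs), 29 towards plus and 23 towards minus. In opposite-strand pairs the shares were 8.55% over 2 and up to 10 kb apart and 10.59% beyond that, up to 50 kb. Both ends were lower in 4 pairs and higher in 0 by edgeR (0.89% against 1.02% of opposite-strand pairs), and 4 were called together by DESeq2 too. No pair had opposite calls by edgeR (0 of 450, against 0.0509% of opposite-strand pairs). At an unadjusted p under 0.05, 5 pairs were higher and 13 lower at both ends and 5 had opposite signs. Of the 803 ends, 8 were higher and 41 lower (6.10% against 5.79%; 1.00% against 1.33% for higher and 5.11% against 4.46% for lower). Scaled to deposited totals, 138 were higher and 21 lower, which cannot be told apart from the kind of list. Replicate numbers pair these libraries, and with them as a block the balance was called in 116 pairs, 147 ends changed and 14 pairs moved together.

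At chr11:63764848-63765269 and chr11:63765388-63766016, 2 plus-strand ends that face the same minus-strand end at chr11:63766020, the called change was on the minus strand. The minus-strand end had 49.4, 33.0 and 54.5 CPM in DMSO and 8.56, 7.47 and 7.50 CPM in oxaliplatin, with no overlap, and fell by 2.55 ± 0.37 (adjusted p = 0.000171). The nearer plus-strand end, 4 bases away, had 207, 167 and 196 CPM and then 197, 166 and 196 CPM (log2 change -0.05 ± 0.21, adjusted p = 0.918). Both ends fell at chr16:779311-779783 (plus) and chr16:779719 (minus), which cross by 64 bases. The plus-strand end there went from 30.8, 24.1 and 42.6 CPM to 4.79, 7.78 and 6.37 CPM (log2 change -2.38 ± 0.33) and the minus-strand end from 30.4, 24.3 and 29.6 CPM to 8.82, 8.72 and 11.8 CPM (-1.53 ± 0.29). Within the polysomes, replicate 3 (short) less replicates 1 and 2 (long) was 0.753 and 0.896 at the farther and nearer chr11 pairs, in log2 of plus over minus. At the chr16 pair it was 0.143. Oxaliplatin against DMSO is also short less long, and treatment and kind of list cannot be told apart here.

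Pair A, chr19:14733086-14734153 (plus) and chr19:14732345-14733053 (minus), had the largest change towards minus with oxaliplatin. Its plus-strand share was 66.1%, 61.5% and 60.9% in DMSO and 15.7%, 8.93% and 9.57% in oxaliplatin, a change of -3.74 ± 0.38 on the log2 scale. The share moved with the kind of list. It was 8.9% to 15.7% in all 11 short lists and 39.0% to 90.6% in all 16 long lists, and no other of the 450 pairs split the libraries this way. In the long lists a plus-strand peak reached past chr19:14733800 and held 83 to 1860 counts, and no short list held a peak there. In the 15 long lists that also had a separate peak before that point, this nearer peak alone gave a plus-strand share of 8.9% to 19.7%. The large values of this pair in cisplatin against oxaliplatin (5.21 ± 0.41) and A549R against A549 (2.41 ± 0.27) carry the same split.

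Without DMSO replicate 1, oxaliplatin replicate 2 or oxaliplatin replicate 3, the balance was called with oxaliplatin in 17, 22 and 20 pairs. Ends called were then 22, 25 and 27, and 76 without DMSO replicate 2.

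Cisplatin against oxaliplatin, both at 100 µM in H358, shares its cisplatin or its oxaliplatin libraries with the comparisons above. The balance was called in 96 pairs (21.3%; 14.1% over all core pairs), 50 towards plus and 46 towards minus. At both larger distances of opposite-strand pairs the shares were 18.66% and 19.68%. Both ends were higher in cisplatin in 23 pairs and lower in 2 (5.56% against 3.23%), and 9 had opposite calls (2% against 1.22%). Single ends were higher in 122 cases and lower in 48 (21.2% against 18.5%; 15.2% against 10.1% for higher and 5.98% against 8.42% for lower), and with deposited totals 22 were higher and 540 lower. The median member end shifted by -0.97 on the log2 scale under totals, so calls of single ends here hold only relative to the core. That shift cannot be told apart from the kind of list, which is long in cisplatin and short in oxaliplatin.

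The balance does not depend on that scaling. At chr1:32798624-32799304 (plus) and chr1:32799420 (minus), 116 bases apart, the plus-strand share was 27.2%, 28.0% and 21.5% in oxaliplatin and 6.36%, 6.68% and 4.04% in cisplatin. The minus-strand end was at 290, 244 and 319 CPM in oxaliplatin and at 922, 788 and 771 CPM in cisplatin, and the plus-strand end at 108, 95.3 and 87.5 CPM and then 62.6, 56.4 and 32.4 CPM. Neither end overlapped between groups, and the balance changed by -2.51 ± 0.27 (adjusted p = 3.45e-05). The chr14 pair again rose at both ends, by 1.66 ± 0.28 and 1.78 ± 0.24. At chr19:49133363-49133668 (plus) and chr19:49133812 (minus) the balance changed by 2.47 ± 0.43, with the plus-strand share at 28.5%, 31.2% and 33.5% in oxaliplatin and 68.6%, 68.4% and 78.1% in cisplatin. Within the polysomes, replicate 3 (short) less replicates 1 and 2 (long) was -1.115 at this chr19 pair and -0.589 at the chr1 pair, in log2 of plus over minus. Cisplatin against oxaliplatin is long less short, and treatment and kind of list cannot be told apart here. Without cisplatin replicate 2 or oxaliplatin replicate 3 the balance was called in 64 and 53 pairs, and pairs together fell to 13 and 16, and to 16 without cisplatin replicate 1.

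In A549 cytosol, cisplatin changed the balance of 35 pairs, 20 towards plus and 15 towards minus (7.78%; 5.2% over all core pairs). The shares were 7.55% and 7.06% at both larger distances of opposite-strand pairs. A single pair, pair A, was lower at both ends (0.22% against 0.229%) and 2 pairs had opposite calls (0.44% against 0.153%). Single ends numbered 31 higher and 19 lower (6.23% against 7.2%; 3.86% against 3.38% for higher and 2.37% against 3.82% for lower). Replicate numbers pair these libraries, and with the block 86 ends changed and 3 pairs moved together.

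Pair B, chr20:54943151-54943724 (plus) and chr20:54944433-54945398 (minus), changed most towards plus in A549 cytosol. Its plus-strand end had 33.0, 36.2 and 28.5 CPM in DMSO and 71.0, 77.3 and 116 CPM in cisplatin, and its minus-strand end had 102, 104 and 115 CPM and then 56.6, 53.0 and 35.2 CPM. Cisplatin and DMSO libraries did not overlap at either end. The plus-strand end rose by 1.42 ± 0.22 (adjusted p = 0.00285), the minus-strand end fell by 1.14 ± 0.24 (adjusted p = 0.0126), and the leading end turned over, from a plus-strand share of 23.4% ± 3.17 to 63.9% ± 11.2 (SD, n = 3). The minus-strand call was lost without cisplatin replicate 3 (-0.97). The same pair shifted in A549R cytosol, by 2.36 ± 0.36 (adjusted p = 0.00391), and in polysomes, by 2.32 ± 0.38 (adjusted p = 0.0305), where the call was lost in 5 of 6 fits that leave out 1 library and kept without cisplatin replicate 3. In H358 its balance did not pass the test (0.70 ± 0.34, adjusted p = 0.166), and the plus-strand share was 14.5%, 12.7% and 21.6% in DMSO and 25.2%, 19.1% and 23.2% in cisplatin. The minus-strand end of pair B was lower there as well, by -1.15 ± 0.25 (adjusted p = 0.00259).

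**Figure D4:**
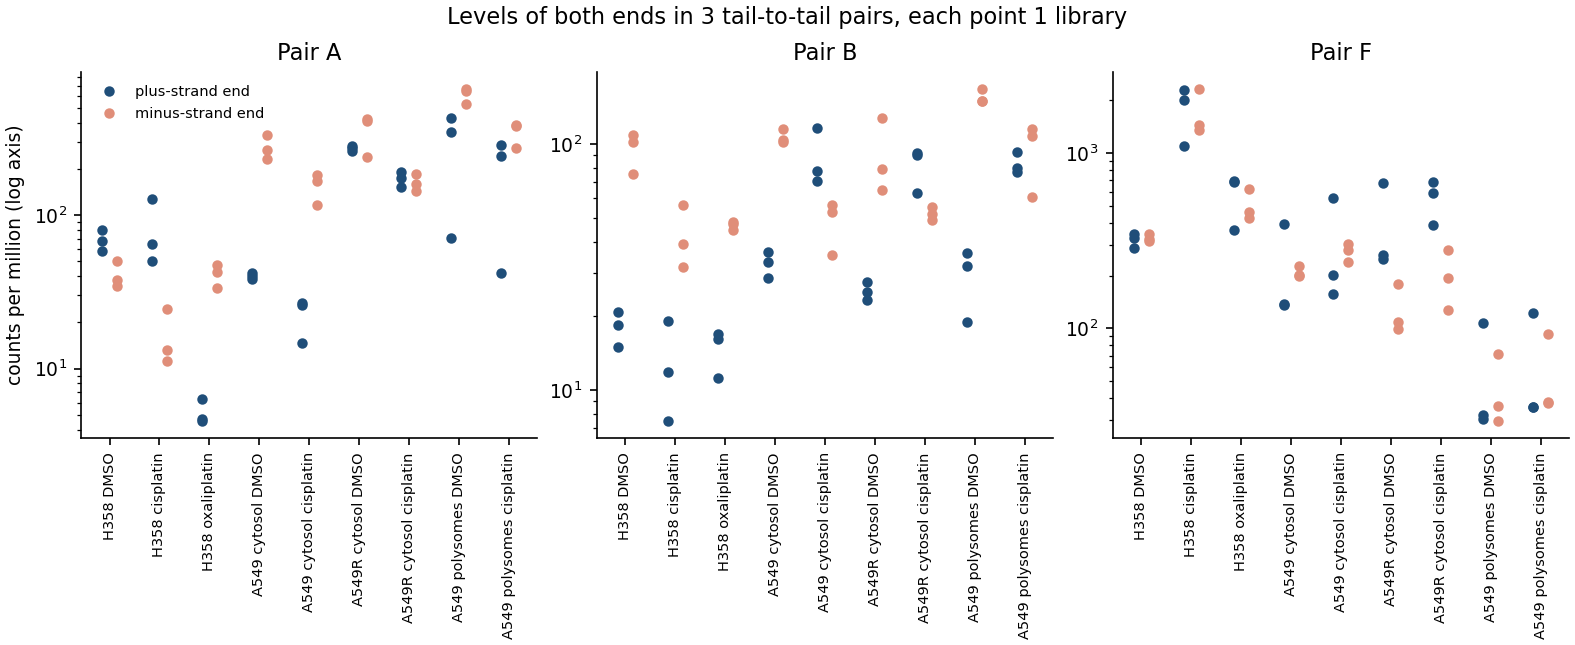
CPM on a log axis (y axis) for the plus-strand end (blue) and minus-strand end (light red) of pairs A, B and F in each of the 27 libraries, by group (x axis), 1 point per library. In pair B the ends trade places with cisplatin in A549 and A549R, in pair F both ends rise in H358 cisplatin, and in pair A the plus-strand end lies far below the minus-strand end where lists are short.

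Pair D, chr19:10942060-10942593 (plus) and chr19:10943096-10943523 (minus), went the other way in A549 cytosol. Its plus-strand end had 70.9, 53.4 and 45.1 CPM in DMSO and 19.4, 19.5 and 18.9 CPM in cisplatin, without overlap, and fell by 1.55 ± 0.20 (adjusted p = 0.000999). The minus-strand end was at 43.3, 48.9 and 65.9 CPM and then 71.6, 68.2 and 99.7 CPM (log2 change 0.60 ± 0.22, adjusted p = 0.108). At chr3:47891352-47891703 (plus) and chr3:47893038 (minus) it was the minus-strand end that fell, by 2.21 ± 0.27 (adjusted p = 0.000437), from 18.9, 28.9 and 20.8 CPM to 4.78, 6.26 and 3.41 CPM. The balance count was 13, 14, 15 and 17 without DMSO replicate 1 or 2 or cisplatin replicate 2 or 3, and the ends called were then 28, 19, 17 and 22; the pair called together was lost in 7 of 12 such fits.

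In A549R cytosol, cisplatin changed the balance of 34 pairs, 20 towards plus and 14 towards minus (7.56%; 4.21% over all core pairs). At both larger distances of opposite-strand pairs the shares were 7.12% and 5.48%. By edgeR, 0 pairs moved together (0.153% of opposite-strand pairs) and 0 were called in opposite directions (0.153%), against 2 together by DESeq2. At an unadjusted p under 0.05, 11 pairs had the same sign and 12 opposite signs. Single ends numbered 21 higher and 16 lower (4.61% against 4.85%; 2.62% against 2.43% for higher and 1.99% against 2.42% for lower), or 76 changed with the replicate block, under which 3 pairs moved together. The widest shift was at chr11:64883359-64883879 (plus) and chr11:64883862-64884434 (minus), whose edges cross by 17 bases. Its plus-strand end had 17.7, 28.6 and 4.01 CPM in DMSO and 154, 113 and 61.9 CPM in cisplatin, and the minus-strand end had 43.3, 42.1 and 44.2 CPM and then 34.0, 34.3 and 43.6 CPM. The 4.01 CPM is from DMSO replicate 3, the library with the lowest core count (1195913), and lies near the smallest listed count of 5. Cisplatin libraries were above DMSO libraries at the plus-strand end alone, and the balance changed by 2.83 ± 0.54 (adjusted p = 0.00979), a call that was lost without replicate 1 of A549R DMSO (2.87) or cisplatin (2.47). The same pair had a change of 2.29 ± 0.31 in polysomes (adjusted p = 0.0157), lost without replicate 1 or 2 of either group.

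Called balance counts in A549R were 6, 7, 16 and 9 without DMSO replicate 1, cisplatin replicate 1, DMSO replicate 2 or cisplatin replicate 2. Ends called were then 11, 14, 15 and 11, and 63 without cisplatin replicate 3.

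The edgeR test of the difference called no pair whose balance responded to cisplatin differently in A549R and A549 (0 of 450, and 0% over all core pairs), nor did limma (0), and 8 pairs had an unadjusted p under 0.05. In DMSO, A549R and A549 differed in the balance of 4 pairs (0.89%; 0.565% over all core pairs), or 14 with the replicate block. Without the block, the shares were 0.71% and 0.5% at both larger distances of opposite-strand pairs. Single ends numbered 13 higher and 24 lower in A549R (4.61% against 2.64%; 1.62% against 1.22% for higher and 2.99% against 1.42% for lower), or 85 changed with the block, and 2 higher and 457 lower with deposited totals. The counts under totals cannot be told apart from the kind of list. Both ends were lower at chr7:150773315-150773619 (plus) and chr7:150773588 (minus), the 1 pair called together (0.22% against 0.306%), and 0 pairs were called in opposite directions by edgeR (0% over all), with 2 at an unadjusted p under 0.05. The plus-strand end there had 123, 139 and 181 CPM in A549 and 82.2, 85.6 and 62.6 CPM in A549R, and the minus-strand end 75.8, 102 and 82.9 CPM and then 43.0, 43.6 and 36.9 CPM. The ends fell by 0.94 ± 0.18 and 1.07 ± 0.17 without overlap, and the plus-strand call was lost without A549R DMSO replicate 1 or A549 DMSO replicate 2.

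Of the 4 balance changes between A549R and A549, 1 was pair A and 1 was chr17:15878408-15879416 (plus) with chr17:15881037 (minus), the other pair whose plus-strand edge moves with the kind of list. Its balance changed by 1.58 ± 0.27 (adjusted p = 0.0127), and the call was lost without A549R DMSO replicate 1 or 2 or A549 DMSO replicate 2. Every long list, and so all A549R libraries, held a plus-strand peak that reached past chr17:15879323, with 11 to 118 counts, and no short list, and so no A549 cytosol library, held one. The plus-strand share of this pair was 32.7% to 77.4% in short lists and 51.9% to 85.5% in long lists, which overlap. Within the polysomes, replicate 3, a short list, stood 1.56 below replicates 1 and 2 in log2 of plus over minus. The change between A549R and A549 cannot be told apart from the kind of list.

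Balance counts in that comparison ran from 1 to 12 as libraries were left out, with 1 without DMSO replicate 1 or 2 of A549R or DMSO replicate 2 of A549, 2 without A549 DMSO replicate 1 or any of 3 cisplatin libraries of replicate 1 or 2, 12 without A549 DMSO replicate 3 and 9 without A549 cisplatin replicate 3. Ends called were 10 without replicate 1 of either DMSO group, 13 and 12 without replicate 2 of A549 and A549R, and 24 without A549 cisplatin replicate 2.

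In A549 polysomes, the RNA attached to many ribosomes, cisplatin changed the balance of 10 pairs, 8 towards plus and 2 towards minus (2.22%; 1.1% over all core pairs). At both larger distances of opposite-strand pairs the shares were 1.71% and 1.37%. By edgeR 0 pairs moved together and 0 in opposite directions (0% in both cases over all opposite-strand pairs), DESeq2 called 0 together, and 5 and 6 pairs had the same and opposite signs at an unadjusted p under 0.05. Of single ends, 7 were higher and 3 lower (1.25% against 1.02%; 0.87% against 0.706% for higher and 0.37% against 0.313% for lower). Replicate numbers met the rule for pairing in the polysome libraries, of which replicate 3 of both groups is a short list. Pairing and kind of list cannot be told apart here, and the block takes up both. With the block the balance changed in 55 pairs, 83 ends changed and 3 pairs moved together. Pair C had a plus-strand share of 40.4%, 38.7% and 37.2% in DMSO and 14.4%, 12.8% and 5.76% in cisplatin, a balance change of -2.44 ± 0.38 (adjusted p = 0.0257). At chr15:89859609-89859718 (plus) and chr15:89859528-89859930 (minus) the share went from 80.9%, 82.8% and 81.3% to 60.3%, 65.1% and 46.7%. Without replicate 1 or 2 of either group, 0 balance changes and 1 to 2 ends were called, and without cisplatin replicate 3 the counts were 6 and 5.

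Several pairs shifted the same way in more than 1 cisplatin comparison, each against its own DMSO libraries. The deviations of same-numbered cisplatin libraries of A549 cytosol and polysomes over core ends correlated at 0.31, 0.22 and 0.59. The settings are therefore not all independent. The balance was called by edgeR in the same direction in H358 and A549 cytosol in 15 pairs (3.33%; 2.95% of opposite-strand pairs and 2.08% of all core pairs) and in opposite directions in 0 (0.127% and 0.212%). For A549 and A549R cytosol the counts were 21 (4.67%; 3.18% and 2.48%) and 0 (0% of both). In H358, A549 and A549R cytosol together, 7 pairs were called in the same direction (1.56%; 1.09% and 0.989%). These shares were not tested against each other. Pair C was the 1 pair called in all 4 settings (0.222%; 0.204% and 0.292%), at -2.68 ± 0.28 in H358, -2.05 ± 0.40 in A549 cytosol, -1.77 ± 0.42 in A549R cytosol and -2.44 ± 0.38 in polysomes, where the call was lost without replicate 1 or 2 of either group. Its plus-strand end fell in each, by 1.50, 1.54, 1.49 and 1.59, and its minus-strand end passed the test in H358 alone (log2 changes of 1.17, 0.49, 0.23 and 0.83), a contrast that was not itself tested. Pair D was called in H358 (-2.12 ± 0.29), A549 (-2.13 ± 0.30) and A549R (-1.60 ± 0.31), and not in polysomes (-1.63 ± 0.36, adjusted p = 0.0693). The pair at chr22:39129249-39129604 (plus) and chr22:39130655 (minus) was called towards plus in H358 (2.33 ± 0.34), A549 (1.52 ± 0.39) and A549R (2.12 ± 0.37), where its minus-strand end fell in each; it was chosen after its values were seen.

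**Figure D5:**
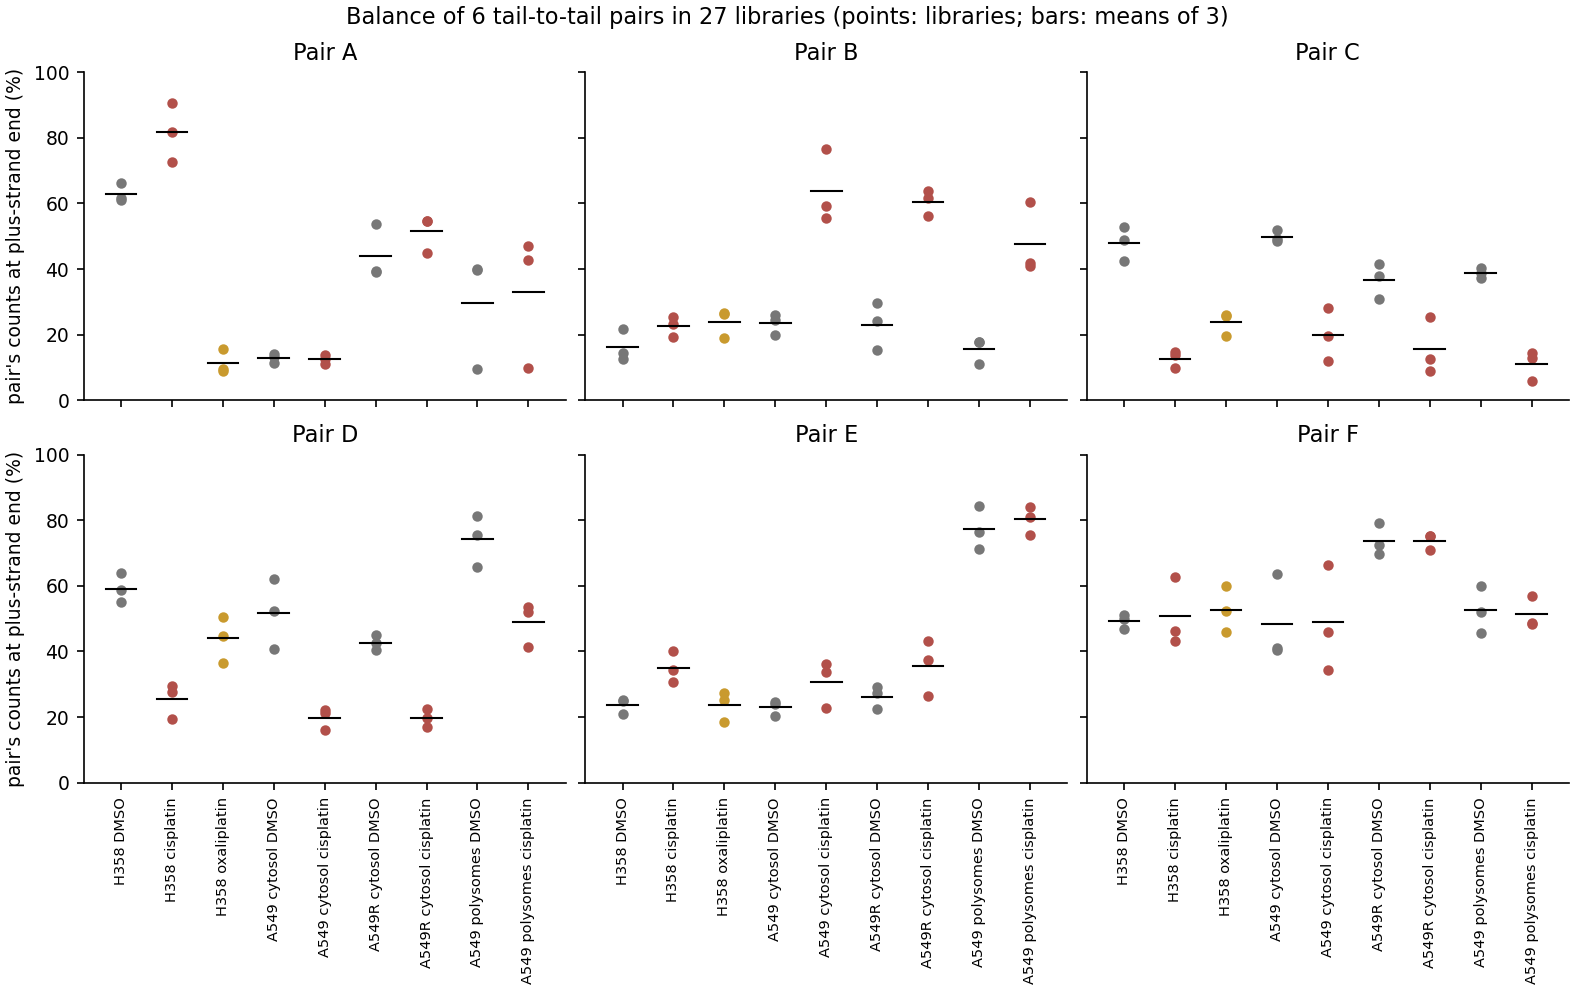
Percent of a pair's counts at its plus-strand end (y axis) in each of 27 libraries (points) with group means (bars), by group (x axis), for pairs A to D, E (chr7:102113353-102113625 plus, chr7:102113862 minus) and F. Pair C falls with cisplatin in all 4 settings, pair B rises in the A549 and A549R settings, pair E is high in polysomes, and pair A is low in the libraries with short lists.

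Between polysomes and cytosol of DMSO-treated A549, the balance differed in 199 pairs (44.2%; 32.7% over all core pairs), 110 towards plus in polysomes and 89 towards minus. The shares were 42.88% and 47.17% at both larger distances of opposite-strand pairs, so the tail-to-tail pairs lay between them. Both ends were higher in polysomes in 56 pairs and lower in 28 (18.7% against 14.7% of opposite-strand pairs), and 62 pairs had opposite calls (13.8% against 13.6%). Of single ends 249 were higher and 195 lower (55.3% against 51.2%; 31.0% against 26.6% for higher and 24.3% against 24.6% for lower), and with deposited totals 66 were higher and 168 lower. The kind of list differs in replicates 1 and 2, and its part in these counts was not tested beyond the split of pair A.

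Pair E turned over between the fractions. Its plus-strand share was 20.4%, 24.1% and 24.5% in cytosol and 84.3%, 76.5% and 71.2% in polysomes, where the plus-strand end was higher by 1.73 ± 0.23 and the minus-strand end lower by 1.81 ± 0.19 on the log2 scale. The reverse was measured at chr2:74687559-74688049 (plus) and chr2:74688180 (minus), 131 bases apart, with a share of 75.2%, 65.6% and 59.1% in cytosol and 12.4%, 14.7% and 14.9% in polysomes (balance change -3.64 ± 0.33, adjusted p = 2.44e-06). At chr19:49469528-49470268 (plus), the most abundant member end, levels were 36297, 37224 and 23806 CPM in cytosol and 12571, 10387 and 6933 CPM in polysomes, while its minus-strand partner at chr19:49471366 had 79.3, 77.9 and 58.7 CPM and then 390.4, 353 and 127 CPM. No library of one fraction reached into the range of the other at either end. Polysome replicates 1 and 2 are long lists, whereas polysome replicate 3 and the cytosol libraries are short. Over both polysome groups, replicate 3 of this chr19 pair stood 0.98 above replicates 1 and 2 in log2 of plus over minus. The same difference was -0.693 at pair E and 0.497 at the chr2 pair. At these pairs, polysome replicates 1 and 2 thus lay further from cytosol than replicate 3, and the part of the kind of list was not tested. Both ends were lower in polysomes at the chr14 pair, by -1.97 ± 0.68 and -2.19 ± 0.37. The plus-strand change ran from -2.83 to -1.28 as libraries were left out, and its call was lost without cytosol DMSO replicate 3 (-1.28) or polysome DMSO replicate 1 or 2 (-1.67 in each). Both ends were higher at chr3:47891352 (plus) and chr3:47893038 (minus), by 1.78 ± 0.17 and 1.85 ± 0.30. Without polysome DMSO replicate 2, pairs together numbered 55.

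Over all 8 comparisons, 127 of 450 pairs had no called change of balance (28.2%; 29.7% of opposite-strand pairs and 49.1% of all core pairs). Both ends were called in the same direction in at least 1 comparison in 113 pairs (25.1%; 20.9% and 30.7%) and in opposite directions in 75 (16.7%; 16.5% and 11.2%). In 6 pairs both occurred, in different comparisons (1.33%; 1.3% and 0.919%). As the comparisons share libraries, these counts are descriptions.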

How the data were processed

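The 27 libraries are 3'-seq of poly(A)+ RNA with an anchored oligo-dT primer, per the labels' protocols. The deposited lists give whole-number read counts per peak and library, with 5 as the smallest count listed. Bowtie2 2.2.5, SAMtools 1.1, bedtools 2.17.0 and the build mm9 are listed per the submitters' processing notes, whereas the positions fit the human build hg19. How peaks were called and filtered is not stated. No genome or annotation of hg19 was used, so no sequence or gene is given.

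Peaks were merged at 1 base of overlap on a strand and their counts summed per library. Single ends were tested with edgeR 4.0.16 (R 4.3.3; quasi-likelihood, TMM scaling over 9910 core ends, Benjamini-Hochberg adjustment). The balance was tested with edgeR on 2 columns per library, with library terms and an end-by-group term, adjusted over 11320 pairs. H358 (9 libraries), cytosol (12), polysomes (6) and polysomes with A549 cytosol (12) were fitted separately. Both tests were tested on simulated counts. DESeq2 1.42.0 and limma 3.58.1 (0.5 added to counts), the replicate block, other scalings, distances, count minimums and merges, and leaving out each library were alternatives. Counts are of reads without molecular identifiers, and the tests allow for a spread between libraries beyond counting error.

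Replicate numbers were taken to pair libraries where the deviations of every same-numbered pair over core ends correlated above 0.1. This held for H358 oxaliplatin with DMSO (0.52, 0.64 and 0.16), A549 cisplatin with DMSO (0.36, 0.32 and 0.51), A549R cisplatin with DMSO (0.29, 0.19 and 0.34), A549R with A549 (0.23, 0.11 and 0.20), polysome cisplatin with DMSO (0.45, 0.45 and 0.53) and polysomes with cytosol (0.30, 0.20 and 0.55). It did not for H358 cisplatin with DMSO (0.44, 0.02 and 0.23) or with oxaliplatin (0.32, 0.10 and -0.13). Between the polysome groups, where replicate 3 alone is a short list, pairing cannot be told apart from the kind of list. The main fits left this pairing out, so their SE, adjusted p and lost calls are those of unpaired libraries. With the block, all 92 values of named pairs kept their direction and call.

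Named pairs were, per comparison, the 2 with the largest change of balance each way among called pairs whose groups do not overlap, the 2 called together each way with the largest change at their less changed end, and up to 4 with opposite calls. To these were added the pairs with the closest and the most overlapping edges, the highest counts, and those nearest to 2000 bases. The members, lists and rules were chosen with earlier results of these data known.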

Additional observations from a re-analysis of the deposited data

Results flagged for a closer look

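In 4 pairs the balance went one way with cisplatin in H358 and the other way in A549 cytosol, with no overlap between cisplatin and DMSO libraries in either, and the difference itself passed an edgeR test over all 27 libraries, adjusted over all core pairs. That test, chosen after the data were seen, called 30 of 450 tail-to-tail pairs (6.67%) and 550 of 11320 core pairs (4.86%). These shares are for the test alone. How many other core pairs also meet the rules on direction and overlap was not counted.

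At chr16:30003263-30003676 (plus) and chr16:30005291-30006163 (minus) the log2 change of plus over minus was 1.56 ± 0.36 (SE) in H358 and -1.08 ± 0.42 in A549, a difference of 2.64 ± 0.60 (adjusted p = 0.00914). At chr14:100705887-100706267 (plus) and chr14:100704566-100704791 (minus) it was -1.84 ± 0.50 and 0.68 ± 0.29, a difference of -2.52 ± 0.58 (adjusted p = 0.0108). The pair at chr9:139618201-139618526 (plus) and chr9:139618786-139619557 (minus) had -0.98 ± 0.27 and 0.94 ± 0.27, a difference of -1.93 ± 0.36 (adjusted p = 0.0022). For chr6:160199689-160200172 (plus) and chr6:160199438-160200294 (minus) the values were -1.23 ± 0.28 and 0.56 ± 0.27, a difference of -1.79 ± 0.39 (adjusted p = 0.00672). Line, extract (total cells against cytosol) and kind of peak list (long in these H358 libraries, short in A549 cytosol) cannot be told apart in these differences.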

How the results depend on the processing

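Of 1332 values of named pairs under an alternative, 1202 kept their direction and call, 129 lost the call and 1 turned over: the plus-strand end of chr16:67262868 and chr16:67263282 in cisplatin against oxaliplatin, at -0.16 under total scaling, with 50 of 60 values keeping their call there. The values below are percent of ends called, of pairs together and of pairs with changed balance, and the cause of each move was not tested unless the setting itself changes which ends or libraries are counted.

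Total scaling gave ends called of 44.2% (H358 cisplatin), 19.8% (oxaliplatin), 70.0% (cisplatin against oxaliplatin), 57.2% (A549R against A549), 0.0% (polysome cisplatin) and 29.1% (polysomes against cytosol). Pairs together were then 16.9%, 4.22%, 49.3%, 38.2% and 7.11% in H358 cisplatin, oxaliplatin, cisplatin against oxaliplatin, A549R against A549 and polysomes against cytosol, and 0.0% in A549 cisplatin. For oxaliplatin, cisplatin against oxaliplatin and A549R against A549, the values under totals cannot be told apart from the kind of list.

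With the replicate block, pairs together were 8.44% in H358 cisplatin and 9.56% in cisplatin against oxaliplatin, where the replicate numbers did not meet the rule for pairing. Ends called with the block were 18.3% for oxaliplatin, 10.7% for A549, 9.46% for A549R, 10.6% for A549R against A549 and 10.3% for polysome cisplatin. Pairs together with the block were 3.11%, 0.67%, 0.67%, 1.78% and 0.67% in the same order, and the balance was changed in 25.8% for oxaliplatin, 3.11% for A549R against A549 and 12.2% for polysome cisplatin. The block moved no other of these counts by over 1.5 times.

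DESeq2 called 9.46%, 7.35%, 8.34% and 5.11% of ends in A549, A549R, A549R against A549 and polysome cisplatin, with 0.44%, 0.44% and 1.11% of pairs together in the first 3. One fit of all 27 libraries gave 1.56% together for oxaliplatin, 0.0% together for A549, 2.86% of ends for A549R against A549, and 5.48% of ends and 8.0% of balances for polysome cisplatin. Ends listed in all libraries of the fit gave 8.05%, 0.56%, 0.14% and 11.9% together in H358 cisplatin, oxaliplatin, A549 and polysomes against cytosol, and 4.97% and 1.32% of balances in A549R and polysome cisplatin. A minimum of 20 counts gave 0.0% together in oxaliplatin and A549 and 1.7% in A549R against A549, and balances of 11.9%, 0.0% and 1.14% in A549R, A549R against A549 and polysome cisplatin. Ends of 1 peak per library gave 2.08%, 0.0% and 0.69% together in oxaliplatin, A549 and A549R against A549, 0.0% of balances in the last, and 0.37% of ends in polysome cisplatin. Pairs together were 0.0% within 1000 bases and 0.53% within 5000 bases in A549, and 0.13% within 5000 bases in A549R against A549, whose balances were 0.44% with merging at 50 bases.

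The median log2 of weaker over stronger end turned over where it was near 0: for cisplatin against oxaliplatin (0.01) it was -0.02 with at least 20 counts, -0.05 within 1000 bases and -0.03 to 0.04 without single libraries, and for A549R against A549 (0.03) it was -0.04 with at least 20 counts. Without single libraries it ran from -0.04 to 0.01 for A549 cisplatin and from -0.01 to 0.05 for polysomes against cytosol.

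Leaving out each library in turn gave these ranges. In H358 cisplatin, pairs together ran from 2.0% to 5.56%. For oxaliplatin, ends called ran from 2.74% to 9.46% and balances from 3.78% to 12.9%. For cisplatin against oxaliplatin, pairs together ran from 2.89% to 6.22% and balances from 11.8% to 23.1%. In A549, ends ran from 2.12% to 8.34%, pairs together from 0.0% to 0.44% and balances from 2.89% to 9.33%. In A549R, ends ran from 1.37% to 7.85%, pairs together from 0.0% to 0.22% and balances from 1.33% to 9.33%. For A549R against A549, ends ran from 1.25% to 5.85%, pairs together from 0.0% to 0.44% and balances from 0.22% to 2.67%. In polysome cisplatin, ends ran from 0.12% to 1.12% and balances from 0.0% to 1.56%, and for polysomes against cytosol pairs together ran from 12.2% to 20.7%.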

Other observations

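Replicate 3 of the polysome groups, whose lists are short, was set against replicates 1 and 2 in the balance of tail-to-tail pairs. No such difference was taken between replicates with the same kind of list, so whether replicate 3 stands apart was not tested. The absolute difference in log2 of plus over minus had a median of 0.498, a 90th percentile of 1.254 and a maximum of 2.92 over the 450 pairs. Pearson's r of that difference with the change of balance, over the 450 pairs, was 0.27 for cisplatin in H358, 0.31 in A549 cytosol and 0.26 in A549R cytosol, where both groups have lists of the same kind. Where the kind of list differs between the groups it was 0.22 for oxaliplatin against DMSO, 0.14 for cisplatin against oxaliplatin and 0.24 for A549R against A549. The polysome difference and oxaliplatin against DMSO are short less long lists, whereas the other comparisons in that sentence are long less short. None of these 6 use polysome libraries. For the comparisons that share them it was 0.30 for polysome cisplatin and -0.34 for polysomes against cytosol. Of the 803 member ends, 12 had a median 3' edge at least 100 bases apart between long and short lists.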
